A study of Mus musculus with 2 samples.

Results

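Border-associated macrophages are the resident macrophages of the meninges, the perivascular spaces and the choroid plexus. In the single-cell profiles of the mouse dentate gyrus examined here they were 304 of 16636 kept barcodes. They were chosen by counts of unique molecular identifiers (UMIs, 1 per captured messenger RNA molecule). A member carried at least 8 UMIs over Mrc1, Pf4, F13a1, Cbr2 and Ms4a7, from at least 3 of these 5 genes. This sum also had to exceed the sum of the microglial genes Tmem119, Siglech and P2ry12. No more than 2 UMIs were allowed in any of 4 gene pairs of other brain cells: Cldn5 and Flt1 of endothelium, Aqp4 and Gjb6 of astrocytes, Mog and Ermn of oligodendrocytes, Dcx and Eomes of the neurogenic lineage. Kept barcodes had no fewer than 1000 UMIs and 500 genes, and mitochondrial genes held no more than 20% of their UMIs.

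The dentate gyrus is the hippocampal region that adds granule neurons after birth. Its cells were dissociated with enzymes at postnatal day 30 and profiled with the 10x Genomics 3' droplet assay, from perfused mice in 2 groups with 4 mice per genotype and 1 library each. The control was Nestin-Cre Tg, Phf2+/+ and the conditional knockout (cKO) was Nestin-Cre Tg, Phf2flox/flox, so mice of both groups carried the Nestin-Cre transgene. Phf2 encodes a demethylase of histone H3 lysine methylation, and quiescence of neural stem cells is the question of the series. Nestin-Cre is active in neural progenitors and their descendants, and macrophages descend from blood-forming precursors instead. No source used here ties a barcode suffix to a genotype, so the libraries are called library 1 and library 2 and no value below compares genotypes. Mice were not labelled within a library.

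Border macrophages take up proteins, lipoproteins and dead cells with scavenger receptors and lectins, and they can recruit leukocytes by releasing chemokines. They share the growth factor receptor Csf1r with microglia, the macrophages of the brain parenchyma, but lack the Sall1-dependent microglial program. In the meninges and perivascular spaces they are usually divided into cells with more Lyve1 and cells with more MHC class II.

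Library 1 held 164 members among 8255 kept barcodes, which is 1.99% (exact Clopper-Pearson 95% interval 1.697 to 2.311). Library 2 held 140 among 8381, which is 1.67% (1.41 to 1.97). Set against members plus microglia, they were 5.24% (4.49 to 6.08) and 5.37% (4.54 to 6.31). The intervals of the libraries overlapped on both scales, and they cover counting error only. Microglia were taken with the mirror of the same rule (at least 8 UMIs over Tmem119, Siglech and P2ry12, 2 of the 3 detected), which gave 2965 and 2466 cells. Endothelial cells (925 and 927) served as the background, because they should lack macrophage RNA. They had at least 8 UMIs over Cldn5 and Flt1 and met the limits on the other pairs. Their rule also allowed at most 2 UMIs of the 5 border genes and at most 2 of the 3 microglial genes. Their low levels of those genes were therefore fixed in advance. Median depth was 8365.5 and 7257 UMIs in members, 7906 and 7013 in microglia, and 8908 and 8077 in endothelial cells. Summed over cells, members gave 1416605 and 1032190 UMIs. No member barcode occurred among the members of the other library, but the bases of 3 member barcodes also occurred among the other library's kept barcodes, as did those of 23 kept barcodes in all.

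The 5 genes that chose the cells were abundant in them, which the rule required and which is given as a description only. Summed counts are written as counts per 1000000 UMIs (CPM) in library 1 and library 2. Mrc1, the mannose receptor, stood at 4501 and 4132 CPM in members against 24.5 and 24.7 CPM in microglia. Pf4, a chemokine better known from platelets, stood at 3889 and 3796 CPM against 2.07 and 2.10 CPM. F13a1, a coagulation factor subunit, stood at 1336 and 1539 CPM, the carbonyl reductase gene Cbr2 at 817 and 859 CPM, and Ms4a7, a membrane protein of macrophages, at 1078 and 920 CPM. All 5 were found together in 137 of 164 and 112 of 140 members. Within single members Mrc1 ranged up to 112 and 107 UMIs per 10000, with medians of 43.9 and 34.7.

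**Figure D1:**
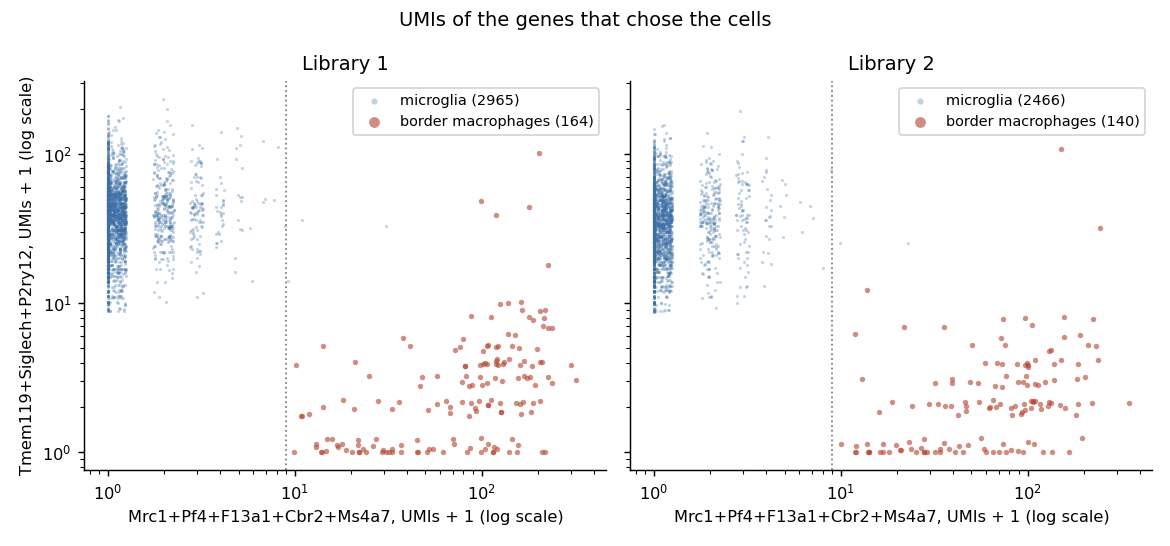
UMIs of the 5 genes that chose border macrophages (x axis) against UMIs of the 3 microglial genes (y axis), each plus 1 on a log scale, in 164 and 140 border macrophages and 2965 and 2466 microglia of the 2 libraries; the dotted line marks the minimum of 8 UMIs. Members form a cloud with a median of 98 and 72 UMIs on the x axis, and a part of them reaches upward on the y axis, to 101 and 107 microglial UMIs.

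Few cells lay near the minimum. The lowest member had 9 UMIs of the 5 genes, 13 members had 9 to 12, and 9 barcodes that met every other limit had 5 to 7. Another 28 barcodes had at least 8 such UMIs and were not members, of which 15 exceeded a limit on another cell type's pair, 11 had fewer than 3 of the 5 genes, and 8 had as many or more microglial UMIs.

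The label was checked against genes that the rule did not use. The 8 monocyte markers, among them Ly6c2, Ccr2 and Chil3, summed to 3 and 5 UMIs, with 5 of the 8 genes at 0 in library 1 and 7 of 8 in library 2. All 7 neutrophil markers were at 0 in both libraries, and 8 T and NK cell markers summed to 1 and 0 UMIs. The dendritic cell list gave 34 and 28 UMIs, 24.0 and 27.1 CPM, against 22.4 and 23.9 CPM in microglia. RNA of other cells was present in some members. Over 2 microglial UMIs were found in 56 and 33 members. P2ry12, the purinergic receptor of microglia, had a UMI in 59.8% and 53.6% of members against 9.08% and 7.23% of endothelial cells. The endothelial share is no free baseline, because those cells were chosen with at most 2 microglial UMIs. The level of P2ry12 in members was 239 and 205 CPM. It was 2441 and 2571 CPM in microglia and 471 and 457 CPM in free RNA (barcodes under 100 UMIs). Over 2 UMIs of Ndnf and Reln, genes of Cajal-Retzius neurons, were found in 12 and 4 members. Ndnf is not specific to them here, since 252 of 925 and 390 of 927 endothelial cells carried it, against 9 and 6 for Reln. A stricter set, chosen after seeing the data, kept the 98 and 98 members that met further limits. The doublet caller Scrublet did not mark them, and they had at most 2 microglial UMIs. They also had at most 2 UMIs of Ndnf and Reln and at most 20 UMIs each of hemoglobin and Ttr. Values of this set are given for some genes only, and levels not repeated for it can differ.

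Phf2, the targeted gene, was found in members of both libraries. It had 27 UMIs in library 1, 19.1 CPM (exact Poisson 95% interval 12.6 to 27.7), and 24 UMIs in library 2, 23.3 CPM (14.9 to 34.6). The intervals overlapped. Microglia had 21.7 and 21.9 CPM, endothelial cells 30.8 and 27.8 CPM and free RNA 17.9 and 13.9 CPM. A Phf2 UMI was found in 13.4% and 12.9% of members, against 26.4% and 23.6% of endothelial cells. With every cell thinned to 1000 UMIs the share of members was 1.22% and 1.43%. The assay reads the 3' end of transcripts and no source at hand names the exons removed, so these levels check no label.

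Members were next compared with microglia over all genes (edgeR quasi-likelihood test on counts summed per library and class, library as a block, Benjamini-Hochberg adjustment). The 16 genes of the rule were left out of the test. Of 12952 genes, 2421 (18.7%) were higher in members and 2453 (18.9%) were lower at an adjusted p under 0.05. Library 1 and library 2 gave the same sign for 4827 of these 4874 genes. With 1 residual degree of freedom the test takes its spread largely from all genes together. The p-values therefore do not measure a gene's own spread between the 2 libraries. Each library is a pool, so they do not measure the spread between animals either. Because the rule picks cells along the same axis, genes that go with its genes were partly bound to differ. In the sentences below each log2 difference is members minus microglia. Its standard error (SE) is derived from the F statistic of the same test, so it too rests on a spread shared across genes. All differences called higher or lower passed the threshold of an adjusted p under 0.05.

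Of the 3 KDM7 family genes 0 passed with edgeR, 0 with DESeq2 and 0 at an unadjusted p under 0.05. The log2 difference of Phf2 was -0.04 (SE 0.24, edgeR adjusted p = 0.933). Kdm7a stood at 123 and 128 CPM in members and 128 and 137 CPM in microglia (log2 difference -0.06, SE 0.12), and Phf8 at 17.6 and 11.6 CPM against 18.0 and 15.3 CPM (-0.16, SE 0.28).

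Genes known from border macrophages but not used by the rule were higher in 29 of 30 cases, with a median log2 difference of 5.54 where all genes tested had -0.05. This list was drawn from the same kind of knowledge as the rule and is not independent of it. Lyve1, the hyaluronan receptor of lymphatic vessels and perivascular macrophages, stood at 1108 and 1408 CPM in members and at 0.115 and 0.315 CPM in microglia (log2 difference 12.55, SE 0.20). Cd163, the receptor for hemoglobin-haptoglobin complexes, stood at 979 and 1029 CPM against 0.537 and 0.210 CPM (11.28, SE 0.19). The summed levels of both genes were higher in members in either library, although some single members had no UMI of one or the other. The lectin gene Cd209f had 830 UMIs in members and 1 in microglia, a ratio of levels of 15288 (counting interval 2736 to 604565). Its neighbour in the family, Cd209g, and Pla2g2d, a secreted phospholipase, had no UMI in microglia and were at least 583-fold and at least 817-fold higher in members, against a floor of 3 UMIs over both libraries. Among the other lectins, Mgl2 (log2 difference 10.89) and Clec10a (9.96) were also nearly absent from microglia. The folate receptor gene Folr2 stood at 246 and 450 CPM against 0.844 and 1.10 CPM. Smaller differences were found for Lyz2, the lysozyme (4.42, SE 0.14), and the scavenger receptor Stab1 (2.88, SE 0.11). The exception was Slco2b1, an organic anion transporter, at 243 and 234 CPM in members and 529 and 493 CPM in microglia (-1.07, SE 0.11).

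All 23 microglial genes outside the rule were lower, with a median log2 difference of -3.39. Sall1, the transcription factor that maintains microglial identity, stood at 10.6 and 7.75 CPM in members, 273 and 278 CPM in microglia and 58.2 and 57.5 CPM in free RNA. Its log2 difference was -4.86 (SE 0.19), and that of its relative Sall3 was -5.81 (SE 0.28). The fructose transporter Slc2a5 (-5.28, SE 0.22) and the secreted factor Olfml3 (-4.19, SE 0.14) were lower by similar amounts. Upk1b had no UMI in members and was at least 18.1-fold lower. Other microglial genes remained well represented in members. Csf1r, the receptor for the survival factor Csf1, stood at 1977 and 1980 CPM against 3172 and 3005 CPM (-0.62, SE 0.13). Fcrls, a scavenger receptor-like gene, stood at 1601 and 1198 CPM against 1927 and 1642 CPM (-0.33, SE 0.12). The fractalkine receptor Cx3cr1 stood at 849 and 641 CPM against 4288 and 4342 CPM, beside 810 and 727 CPM in free RNA, and whether free RNA accounts for it was not tested.

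**Figure D2:**
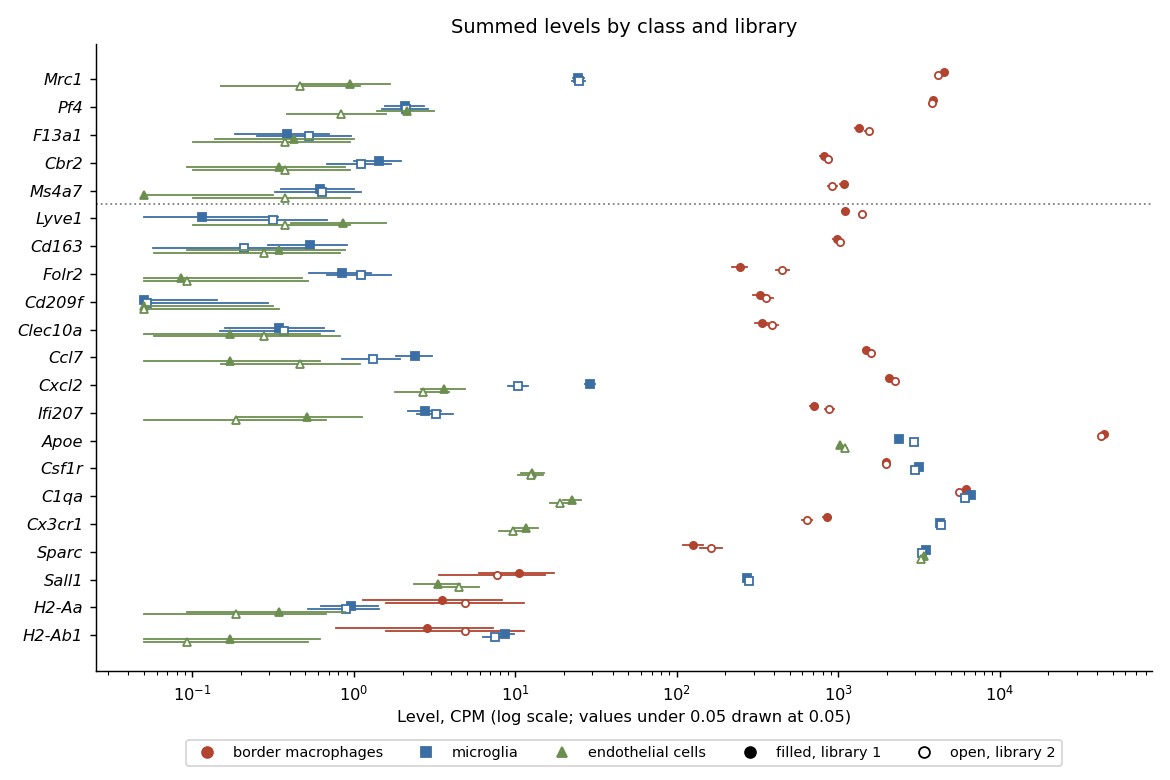
Summed level in CPM (log scale) of 21 genes in border macrophages (circles), microglia (squares) and endothelial cells (triangles), filled for library 1 and open for library 2, with exact Poisson 95% intervals. The 5 genes above the dotted line chose the cells; below it, Lyve1 and Cd163 stand near 1000 CPM in border macrophages and under 1 CPM in microglia, while C1qa lies at nearly the same place in both.

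Receptors for uptake were mostly higher in members: of 26 tested, 17 were higher and 5 lower, with a median log2 difference of 1.61. Timd4, a receptor for phosphatidylserine on dying cells, had 95 UMIs in members and none in microglia and was at least 583-fold higher. The fatty acid translocase Cd36 stood at 291 and 306 CPM against 0.422 and 0.682 CPM (9.12, SE 0.18). Clec12a (8.60, SE 0.75), Colec12 (7.54, SE 0.17) and Msr1 (6.69, SE 0.17), receptors for uric acid crystals, sugars and modified lipoproteins, were higher by comparable amounts. The endocytic adaptor Dab2 stood at 1417 and 1791 CPM against 28.5 and 29.5 CPM (5.80, SE 0.13). The direction differed within the phosphatidylserine-sensing group. Mertk was lower in members, 200 and 176 CPM against 475 and 432 CPM (-1.25, SE 0.11), Havcr2 was lower (-4.69, SE 0.21) and Axl was higher, at 20.5 and 34.9 CPM against 7.25 and 9.71 CPM. The large endocytic receptor Lrp1 was lower (-1.78, SE 0.12).

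Iron and heme genes were higher in 13 of 19 cases and lower in 3, with a median log2 difference of 0.95. The ferroxidase Cp stood at 318 and 266 CPM in members and 2.03 and 3.10 CPM in microglia (6.89, SE 0.15), with 120 and 162 CPM in endothelial cells. Both biliverdin reductases, which complete heme breakdown, were higher: Blvrb by 3.13 (SE 0.11) and Blvra by 2.06 (SE 0.14) on the log2 scale. Heme oxygenase Hmox1, the first enzyme of that pathway, stood at 184 and 238 CPM against 78.4 and 86.0 CPM (1.37, SE 0.11). The iron exporter Slc40a1 (1.45, SE 0.11) and the ferritin heavy chain Fth1 (1.30, SE 0.13) were also higher. The glutathione enzyme Gclc was lower (-1.51, SE 0.20). Red cell RNA was common in all classes, and Hbb-bs had a UMI in 87.2% and 49.3% of members and 88.3% and 50.4% of endothelial cells.

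Lipid genes were split, with 12 of 22 higher and 7 lower. Apoe, the main lipoprotein of the brain, stood at 44178 and 42211 CPM in members, 2386 and 2955 CPM in microglia and 1030 and 1107 CPM in endothelial cells (log2 difference 4.05, SE 0.16). It was found in every member. The galectin Lgals1 (5.79, SE 0.13), the phospholipid transfer protein Pltp (4.86, SE 0.14) and the lipid droplet coat Plin2 (3.22, SE 0.11) were higher. Cathepsins went both ways, with Ctsb higher (1.10, SE 0.13) and Ctsd lower (-1.67, SE 0.13). The cholesterol exporter Abcg1 was lower (-2.86, SE 0.21) and so was lipoprotein lipase, Lpl (-4.14, SE 0.36), at 2.12 and 2.91 CPM against 37.0 and 54.0 CPM. Abca1, the other main cholesterol exporter, was slightly higher (0.32, SE 0.11).

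Among complement genes 8 of 15 were higher and 3 lower. The initiating C1q chains did not differ past the threshold: C1qa stood at 6171 and 5596 CPM in members and 6649 and 6111 CPM in microglia (log2 difference -0.09, SE 0.13, edgeR adjusted p = 0.649), and C1qb and C1qc had differences of -0.20 and -0.17 (SE 0.13 each). Among the higher genes were properdin, Cfp, at 152 and 132 CPM against 0.960 and 0.525 CPM (7.54, SE 0.21), C4b (7.44, SE 0.19) and C2 (6.87, SE 0.38). The C5a receptor C5ar1 was higher (2.04, SE 0.11). The integrin chains of complement receptor 3 were lower: Itgam (-2.14, SE 0.12) and Itgb2 (-1.40, SE 0.13).

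Chemokines and cytokines were higher in 10 of 26 cases and lower in 7, and the median log2 difference was 0.10. Ccl7, a ligand of Ccr2 on monocytes, stood at 1489 and 1604 CPM in members against 2.38 and 1.31 CPM in microglia (9.68, SE 0.16). Its neighbour Ccl2 stood at 1249 and 1219 CPM against 49.3 and 41.3 CPM (4.80, SE 0.12). Cxcl2, a neutrophil attractant, stood at 2058 and 2244 CPM against 29.0 and 10.4 CPM (6.88, SE 0.14), and Cxcl1 at 214 and 178 CPM against 0.230 and 0.105 CPM (10.07, SE 0.22). Ccl24, which attracts eosinophils, stood at 476 and 718 CPM against 6.91 and 9.29 CPM (6.21, SE 0.13). Il10, an anti-inflammatory cytokine, had 65 UMIs in members and none in microglia, at least 399-fold higher, and those UMIs came from 8 of 164 and 6 of 140 members. Other ligands were lower in members: Ccl4 at 447 and 615 CPM against 2005 and 1788 CPM (-1.83, SE 0.12), Il1a (-2.96, SE 0.13) and Csf1 (-3.92, SE 0.25). Ccl3 did not pass (log2 difference -0.06, SE 0.10).

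The early response list, which holds genes that enzymatic dissociation is known to induce, was lower in 15 of 28 cases and higher in 6, and without the library block 13 were lower and 2 higher. Jun stood at 3953 and 3243 CPM in members against 8413 and 6606 CPM in microglia (-1.03, SE 0.14). Egr1 (-1.30, SE 0.13), Rhob (-1.60, SE 0.13), Ier5 (-1.27, SE 0.11) and Dnajb1 (-1.06, SE 0.11) were lower. Nr4a1, a nuclear receptor induced by many stimuli, was higher (1.74, SE 0.11), as was Ier3 (1.23, SE 0.11). Both classes carried these transcripts, and their part in the chemokine values was not tested.

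Of 32 macrophage transcription factors 11 were higher and 13 lower. Maf stood at 2060 and 1880 CPM in members against 679 and 710 CPM in microglia (1.53, SE 0.12). Tfec, a relative of Mitf, was higher (4.95, SE 0.64), as were Ets2 (1.80, SE 0.11), Cebpb (1.16, SE 0.10) and Irf4 (2.16, SE 0.43). Spic, needed by the iron-recycling macrophages of the spleen, had 29 UMIs in members and 3 in microglia (ratio 178, counting interval 55.2 to 913). Irf8 (-0.93, SE 0.11), Mef2a (-1.40, SE 0.11) and Batf3 (-3.54, SE 0.35) were lower. The TGF-beta effector Smad3 was also lower, at 11.3 and 5.81 CPM against 36.0 and 36.0 CPM. Spi1, the master factor PU.1, was 287 and 344 CPM against 385 and 393 CPM (-0.28, SE 0.11).

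Interferon response genes were higher in 20 of 20 cases, with a median log2 difference of 2.69. Over the alternatives tried, 15 to 20 were higher, and 0 were lower with edgeR, with DESeq2 or at an unadjusted p under 0.05. Ifitm2 and Ifitm3, membrane proteins that block viral entry, stood at 606 and 732 CPM and at 556 and 738 CPM in members, against 3.88 and 6.19 CPM and 14.7 and 22.8 CPM in microglia (7.11, SE 0.14, and 5.15, SE 0.12). Ifi27l2a (5.34, SE 0.12), Ifi204 (5.05, SE 0.13), Oasl2 (3.82, SE 0.33) and Rtp4 (3.08, SE 0.20) were also higher. Bst2, or tetherin, which holds budding virus at the cell surface, stood at 861 and 783 CPM against 113 and 117 CPM (2.87, SE 0.11). Classical inducible genes had low levels: Ifit1 at 26.8 and 15.5 CPM against 2.69 and 1.73 CPM (3.26, SE 0.53; 4.81 and 18.3 CPM in the stricter set), Ifit3 at 40.9 and 42.6 CPM against 7.37 and 6.40 CPM (2.62, SE 0.26), and Isg15 at 20.5 and 28.1 CPM against 6.60 and 8.45 CPM (1.71, SE 0.31). Endothelial cells carried many of these transcripts too, with Ifitm3 at 1121 and 957 CPM and Ifit1 at 94.2 and 81.6 CPM. The type I interferon receptor chain Ifnar1 was slightly higher in members (0.62, SE 0.15).

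Because these genes moved together, their promoters were searched on both strands for GAAANNGAAA, the core of the interferon-stimulated response element. RefSeq promoters (mouse assembly GRCm38.p6, 250 bases before to 50 after the start) were at hand for 14 of the 21 genes of the list. Only the 250 bases before the start were searched. The motif was found in 8 of those 14 genes, which is 8 of their 15 promoters (53.3%). Of all 32851 promoters 2.98% held it in those bases, of those of genes higher in members 3.75% and of those of genes lower in members 2.29%. It was one of 9 motifs searched, and a match describes letters, not binding. The 250 bases before the start are printed for 4 of these 8 genes, 5′ to 3′ on the strand of the gene. The motif on either strand is in capitals. The 4 are among the genes whose transcripts are described above. Ifitm2, also described above, is not printed and holds 1 match, 46 bases before the start. Of the rest, Stat2 and Rsad2 hold 1 match each and Oas1a holds 2. Ifit1 and Ifit3 (chr19:34640639-34640888 and chr19:34583279-34583528, plus strand) are neighbours on chromosome 19, Isg15 lies at chr4:156200819-156201068 (minus strand) and Bst2 at chr8:71537473-71537722 (minus strand).
Ifit1: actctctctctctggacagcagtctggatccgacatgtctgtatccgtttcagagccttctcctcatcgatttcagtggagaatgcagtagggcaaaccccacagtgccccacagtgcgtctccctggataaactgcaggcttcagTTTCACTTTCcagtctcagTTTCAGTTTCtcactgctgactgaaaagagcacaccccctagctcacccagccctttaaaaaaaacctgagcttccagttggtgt
Ifit3: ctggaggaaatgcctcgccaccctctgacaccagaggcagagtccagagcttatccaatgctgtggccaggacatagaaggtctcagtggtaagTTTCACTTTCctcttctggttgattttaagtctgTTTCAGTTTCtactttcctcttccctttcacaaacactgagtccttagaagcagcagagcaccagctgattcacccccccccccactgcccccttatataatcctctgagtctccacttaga
Isg15: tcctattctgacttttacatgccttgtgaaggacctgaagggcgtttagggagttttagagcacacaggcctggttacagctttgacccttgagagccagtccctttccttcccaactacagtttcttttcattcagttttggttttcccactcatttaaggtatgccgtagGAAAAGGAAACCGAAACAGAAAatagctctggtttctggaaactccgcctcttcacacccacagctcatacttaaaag
Bst2: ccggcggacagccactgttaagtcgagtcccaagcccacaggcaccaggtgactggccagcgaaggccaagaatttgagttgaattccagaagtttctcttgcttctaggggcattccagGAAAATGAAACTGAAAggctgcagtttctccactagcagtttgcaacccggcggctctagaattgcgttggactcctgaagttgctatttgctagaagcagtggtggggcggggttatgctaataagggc
Ifit1, Ifit3 and Bst2 hold 2 matches each and Isg15 holds 3, and those of Isg15 and Bst2 run into each other. The match nearest to the start lies 85, 122, 66 and 124 bases before it in the order printed.

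**Figure D3:**
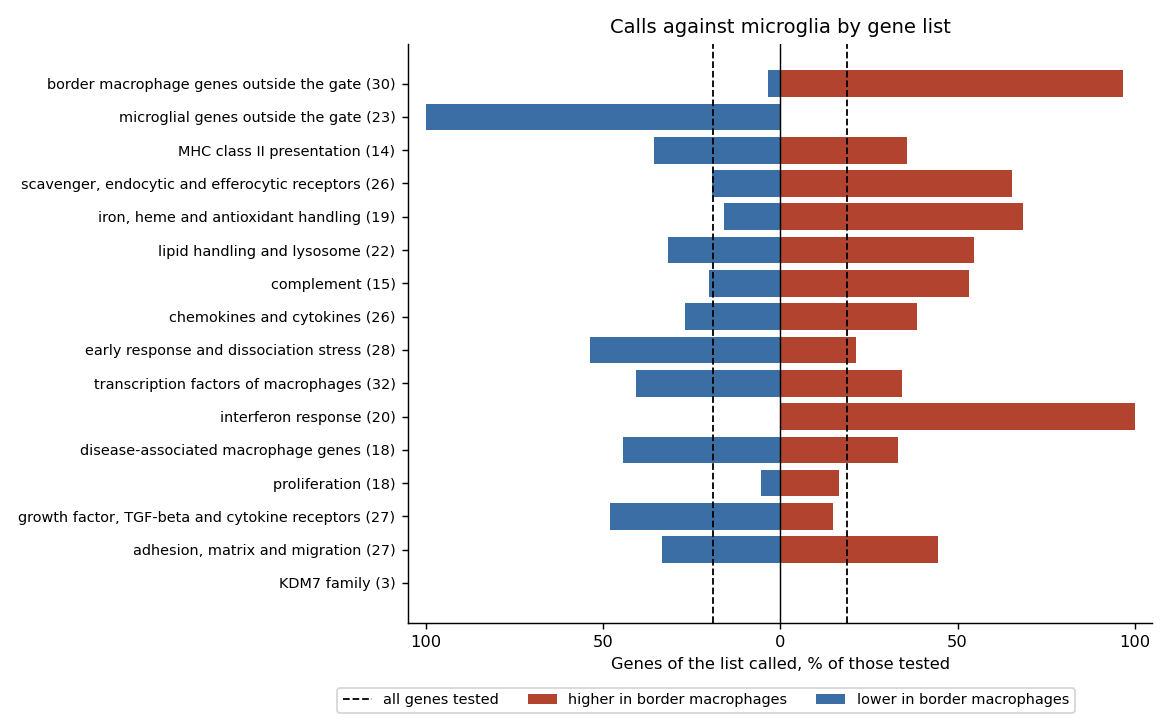
Share of the tested genes of each list (number in brackets) that were higher (right) or lower (left) in border macrophages than in microglia at an edgeR adjusted p under 0.05; dashed lines show the share over all 12952 genes, 18.7% and 18.9%. The border macrophage and interferon lists lie almost wholly on the right and the microglial list on the left, and the MHC class II list is even, with 5 of 14 on each side.

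MHC class II transcripts were scarce. H2-Aa, H2-Ab1 and H2-Eb1, the MHC class II chains that carry peptide, had 10, 9 and 8 UMIs in all 304 members together. Each was found in 2 or 3 members per library, and no member had more than 4 UMIs of any of them. Their levels were under those of free RNA: H2-Ab1 stood at 2.82 and 4.84 CPM in members, 8.60 and 7.45 CPM in microglia and 13.5 and 12.2 CPM in free RNA. Cd74, the invariant chain, stood at 67.1 and 106 CPM in members and 93.8 and 113 CPM in microglia (log2 difference -0.26, SE 0.13, edgeR adjusted p = 0.113). It was found in 26.2% and 22.1% of members and 33.8% and 35.6% of microglia, against 1.19% and 0.863% of endothelial cells. After thinning it was found in 4.27% and 8.57% of members and 7.93% and 8.72% of microglia. The peptide loading genes H2-DMa (-3.53, SE 0.18) and H2-DMb1 (-1.80, SE 0.19) were lower in members. H2-Oa had 3 UMIs in members (ratio 0.0282, counting interval 0.00581 to 0.0825). The costimulatory gene Cd86 was higher, 304 and 361 CPM against 213 and 206 CPM (0.68, SE 0.11). With each cell thinned it had a difference of 0.40 and did not pass (edgeR adjusted p = 0.134). H2-Aa was among the 5 genes called higher, on those 10 UMIs (2.16, SE 0.89, edgeR adjusted p = 0.0428).

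Of 27 genes of receptors, growth factors and prostaglandin enzymes 4 were higher and 13 lower. Nrp1, a co-receptor for semaphorins and Vegf, stood at 441 and 464 CPM in members against 87.4 and 88.8 CPM in microglia (2.39, SE 0.11). Tgfbr1, the TGF-beta receptor chain on which microglia depend, was lower (-3.07, SE 0.13), and so were Pdgfb (-3.30, SE 0.15) and Csf3r (-2.61, SE 0.16). The prostaglandin enzyme Ptgs1 (-1.71, SE 0.12) and the interleukin-10 receptor Il10ra (-1.40, SE 0.12) were lower too. Of 27 adhesion and matrix genes 12 were higher and 9 lower. The matrix metalloproteinase gene Mmp9 had 163 UMIs in members and none in microglia, at least 1001-fold higher. The integrin chain Itga4 (5.52, SE 0.23), the matrix proteins Tgfbi (4.75, SE 0.12) and Ecm1 (4.39, SE 0.50) and the C-type lectin Cd93 (5.83, SE 0.55) were higher. The integrin chains Itga6 (-1.91, SE 0.12), Itgb5 (-2.14, SE 0.12) and Itgav (-2.26, SE 0.18) were lower, as was the tetraspanin Cd9 (-3.97, SE 0.14).

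The disease-associated macrophage list was split into 6 higher and 8 lower of 18. Apoe and Igf1, a growth factor at 328 and 318 CPM against 7.71 and 9.29 CPM (5.28, SE 0.13), were on the higher side, and Trem2, Cd9, Lpl and Csf1 on the lower side. Trem2, the lipid-sensing receptor of that program, stood at 473 and 427 CPM against 1786 and 1648 CPM (-1.91, SE 0.11), beside 534 and 416 CPM in free RNA. Cell division genes were scarce. Of 18 tested, 3 (16.7%) were higher and 1 (5.56%) lower, beside 18.7% and 18.9% of all genes tested. The median log2 difference was -0.38, or -0.25 with genes at 0 in members set to their bound. Mki67, a marker of dividing cells, had 6 UMIs in 6 of 304 members, and Top2a had 3 UMIs in 3. The 3 higher genes were Cenpf (3.16, SE 0.29), Cdk1 (21.9 and 24.2 CPM against 5.45 and 6.25 CPM) and Mcm6 (0.90, SE 0.33), which act in mitosis and DNA replication.

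Outside all lists, the largest differences among genes with at least 50 CPM in both libraries included Bmp2, a secreted growth factor of the TGF-beta family, at 263 and 250 CPM in members against 0.269 and 0.315 CPM in microglia (9.77, SE 0.20). The plasma glutathione peroxidase Gpx3 (9.48, SE 0.21), the ficolin Fcna (9.80, SE 0.24), the serpin Serpinb8 (9.79, SE 0.31) and the protease gene Adam33 (8.08, SE 0.33) stood on the same side. So did the inflammasome receptor Nlrc4 (8.53, SE 0.59), Wfdc17 (8.32, SE 0.17), Gm6377 (9.05, SE 0.23) and the sialic acid enzyme Cmah (7.92, SE 0.46). Rgs18, a regulator of G protein signalling, had 175 UMIs in members and 1 in microglia (ratio 3223, counting interval 571 to 128035). Ifi203 (9.30, SE 0.20) and Ifi207 (8.07, SE 0.15), interferon-inducible DNA sensors of the same gene cluster as Ifi204, can share reads with each other. On the lower side were Ecscr (-5.41, SE 0.21), Abi3 (-5.04, SE 0.21), the adhesion receptor Adgrg1 (-5.03, SE 0.20), the checkpoint receptor Lag3 (-4.70, SE 0.20), Col27a1 (-4.86, SE 0.22), Capn3 (-4.90, SE 0.32), Spint1 (-4.84, SE 0.35), Serpine2 (-4.58, SE 0.18), Lrrc3 (-4.66, SE 0.28), Csmd3 (-4.62, SE 0.31), Gm2629 (-5.31, SE 0.30) and A830008E24Rik (-5.23, SE 0.36).

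Members were not alike among themselves. Lyve1 was found in 79.3% and 78.6% of members and Cd163 in 78.0% and 75% of members, against 0.865% and 0.431%, and 0.432% and 0.324%, of endothelial cells. At 1000 UMIs per cell these shares were 48.2% and 52.9%, and 53.7% and 47.1%. Members without a Lyve1 UMI (34 and 30) were shallower than those with one. Their median depth was 4484 and 2915 UMIs against 9133.5 and 7896, so that depth and Lyve1 detection moved together. They also had fewer UMIs of the genes that chose the cells, with medians of 22 and 25 against 114 and 93. In both libraries this gap was proportionally larger than the gap in depth. Whether depth accounts for the missing Lyve1 was not tested. At equal depth the 2 genes marked overlapping sets of cells. In library 1, 43 members had both, 36 had Lyve1 alone, 45 had Cd163 alone and 40 had neither, and 26.2% with both compares with 25.8% from the product of the shares. In library 2 the numbers were 41, 33, 25 and 41, and 29.3% compares with 24.9%. Folr2 was found in 57.3% and 67.1% of members, Cd36 in 66.5% and 64.3%, Cd209f in 39.0% and 36.4% and Timd4 in 20.1% and 17.9%.

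Chemokine transcripts were concentrated in a part of the members. Cxcl2 was found in 77 of 164 and 65 of 140 members, against 1.82% and 2.07% of microglia and 1.62% and 1.73% of endothelial cells, and single members held up to 178 and 307 of its UMIs. Its median was 0 UMIs per 10000 in both libraries, with upper quartiles of 23.5 and 22.7. Ccl7 was found in 60.4% and 52.9% and Ccl2 in 99 of 164 and 70 of 140 members. By contrast Apoe was found in all members, with medians of 474 and 431 UMIs per 10000. After thinning, Cxcl2 and Ccl7 occurred together in 20.1% and 17.1% of members, where the product of their shares is 15.0% and 12%. Cxcl2 and Egr1 occurred together in 28.7% and 22.9%, where the product is 18.4% and 14%.

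**Figure D4:**
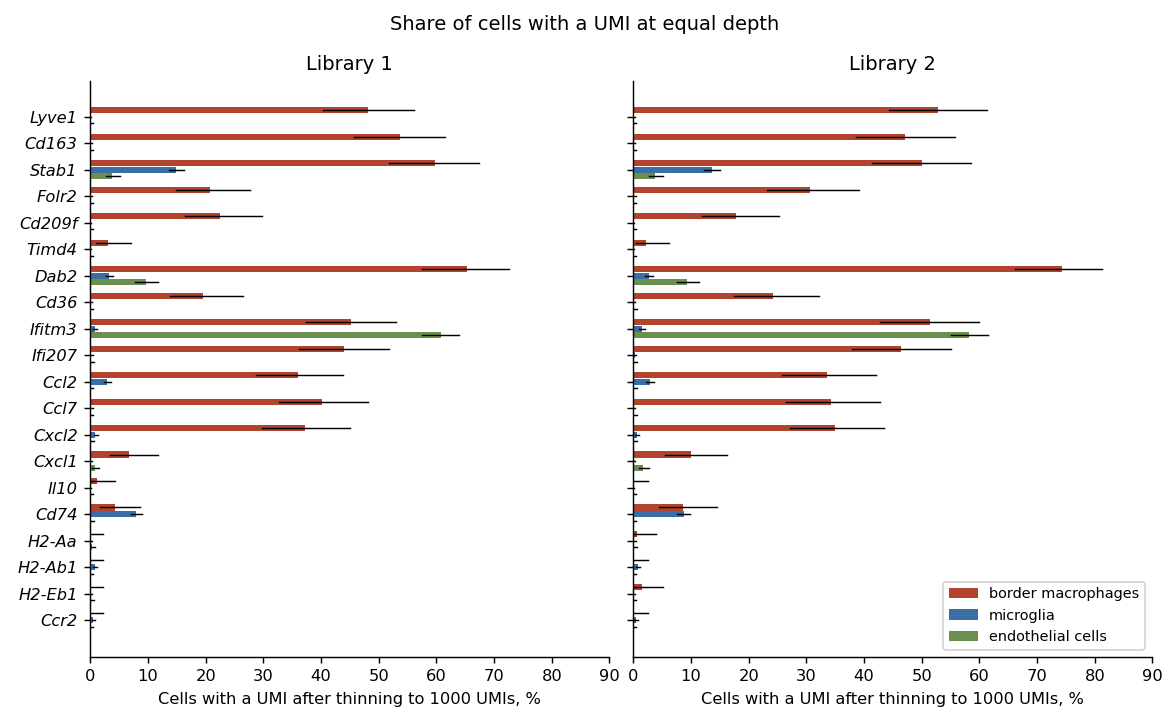
Share of cells with at least 1 UMI of a gene after each cell was thinned to 1000 UMIs, in border macrophages, microglia and endothelial cells of library 1 (left) and library 2 (right), with exact Clopper-Pearson 95% intervals as black lines. Lyve1 and Cd163 reach 47.1% to 53.7% of border macrophages in both libraries, chemokine genes occur in fewer cells, and H2-Aa, H2-Ab1, H2-Eb1 and Ccr2 are near 0.

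To describe the axis of MHC class II, members were ranked within each library by UMIs of H2-Aa, H2-Ab1, H2-Eb1 and Cd74 per 10000, and the upper tertile was set against the lower. The ranking was limited by depth, since 120 of 164 and 109 of 140 members had no UMI of these genes. Of the 54 and 46 upper cells, 44 and 31 had such a UMI, nearly always of Cd74, and all lower cells had none. Ties at 0 were broken in the order of the barcodes, so the lower cells, and the 10 and 15 upper cells without such a UMI, are an arbitrary subset of the members at 0. The upper cells were deeper, with medians of 10057 and 7852.5 UMIs against 7443 and 7107.5, and they carried 603 and 572 CPM of the 3 microglial genes of the rule against 242 and 194 CPM. Of 5466 genes, 41 (0.75%) were higher in the upper cells and 54 (0.988%) lower in the same edgeR test. With the stricter set of members these counts were 6 and 1. With cells thinned they were 0 and 1 with edgeR, of 35 and 53 at an unadjusted p under 0.05, and with DESeq2 on all UMIs they were 5 and 0, of 19 and 26.

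Microglial genes outside the rule were higher in the upper cells in 7 of 17 cases, among them Olfml3 (log2 difference 2.49, SE 0.37), Selplg (2.31, SE 0.30) and Sparc (2.02, SE 0.24). In the stricter set 0 of 13 passed with edgeR and 0 at an unadjusted p under 0.05, and Tgfbr1, called at first (1.06, SE 0.27), had a difference of -0.45. With DESeq2 on all members 2 of 17 were higher. Chemokines and cytokines were higher in 5 of 19 cases, with Ccl4 (1.47, SE 0.15), Cxcl1 (1.12, SE 0.21), Cxcl2 (0.63, SE 0.11) and Ccl24 (0.58, SE 0.14), and 4 of 16 passed in the stricter set. With DESeq2, with total-count scaling and without the library block 1 of 19 was higher in each case. Il1b was also called (1.37, SE 0.28) but rested on library 1, and without it the difference was -0.17. Interferon genes passed in 0 of 14 cases with edgeR and with DESeq2, and 2 did so at an unadjusted p under 0.05. The 4 other MHC class II genes passed in 0 cases with either tool, and 1 did so unadjusted.

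Early response genes were higher in the upper cells in 4 of 28 cases, with Egr1 (0.64, SE 0.11), Nfkbiz (0.44, SE 0.11), Fosb (0.45, SE 0.13) and Btg2 (0.40, SE 0.11), and 1 was lower. With DESeq2 0 of the 28 were called (2 higher at an unadjusted p under 0.05), and in the stricter set 0 of 27 were called with edgeR (6 higher and 2 lower unadjusted). Red cell genes were called higher in the upper cells too: Hbb-bs (2.04, SE 0.15), Hba-a2 (1.91, SE 0.21) and Hba-a1 (1.72, SE 0.18). A single member of library 1 held 1230 of the 1984 Hbb-bs UMIs of that library's members. The log2 ratio of Hbb-bs was 3.19 in library 1 and 0.45 in library 2. Those of Hba-a2 were 1.78 and 2.12, and those of Hba-a1 were 1.94 and 1.58. The part of red cell RNA in the other differences was not tested. On the lower side stood Ttr (-4.13, SE 0.19), but a single member of library 2 held 1339 of the 1648 Ttr UMIs of that library's members, and library 1 had 1 and 3 Ttr UMIs in the upper and lower cells. Genes of neurons were also lower, such as Gria2 (-2.58, SE 0.42), Ncam1 (-2.49, SE 0.45), Stmn2 (-1.62, SE 0.33) and Meg3 (-1.46, SE 0.17). Some of these rest on few UMIs. Gria2 had 13 and 26 UMIs in the upper and lower cells of library 1 and 1 and 33 in library 2. Ncam1 had 5 and 28, and 7 and 21. Over 2 UMIs of Ndnf and Reln were found in 2 upper and 3 lower cells of library 1, and in 1 and 3 of library 2. Among the members' own genes Wfdc17 (-0.94, SE 0.18) and Lyz2 (-0.31, SE 0.09) were called lower in the upper cells. The log2 ratio of Wfdc17 was -0.31 in library 1 and -1.45 in library 2. Lyz2 passed the threshold in none of the alternative fits, with DESeq2 or edgeR, and its difference was 0.016 after thinning.

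Levels of members in the 2 libraries could be set side by side but not tested, because each library is 1 pool. Of 258 pathway genes with at least 20 UMIs in a library, 60 had CPM intervals that did not overlap: 33 higher in library 2 and 27 higher in library 1. Over all 7365 genes with such counts the shares were 3.27% and 4.9%. The largest ratios among pathway genes were those of the heat shock genes Hspa1b, at 92.5 CPM in library 1 (77.3 to 110) and 20.4 in library 2 (12.6 to 31.1), and Hspa1a, at 234 (209 to 260) and 76.5 CPM (60.6 to 95.4). Microglia had the same order for Hspa1a, 198 and 60.0 CPM. Nr4a1 stood at 152 and 341 CPM in members and at 72.3 and 68.9 CPM in microglia, so that the libraries differed in members and hardly in microglia.

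Genes of border macrophages also took part. Folr2 stood at 246 CPM (221 to 274) and 450 CPM (410 to 493), Ets2 at 205 and 352 CPM, Siglec1, a sialic acid receptor, at 33.2 and 58.1 CPM and Ccl6 at 98.8 and 183 CPM, all higher in library 2. In the stricter set Folr2 stood at 287 and 468 CPM. Il1a was also higher in library 2, 34.6 against 94.0 CPM. Higher in library 1 were Ccl8 at 61.4 and 30.0 CPM, the interferon gene Xaf1 at 51.5 and 24.2 CPM and Gclm, a glutathione enzyme, at 50.1 and 25.2 CPM. Apoe differed by little, 44178 against 42211 CPM, although its intervals did not overlap. Among markers of other cells, Ttr of the choroid plexus stood at 4.24 CPM in members of library 1 and 1597 CPM in members of library 2 (310 CPM in the stricter set), and 7.25 and 4138 CPM in microglia. Neuronal Syt1 stood at 70.6 and 27.1 CPM in members (0 and 3.33 CPM in the stricter set). The part of such RNA in the other differences was not tested.

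**Figure D5:**
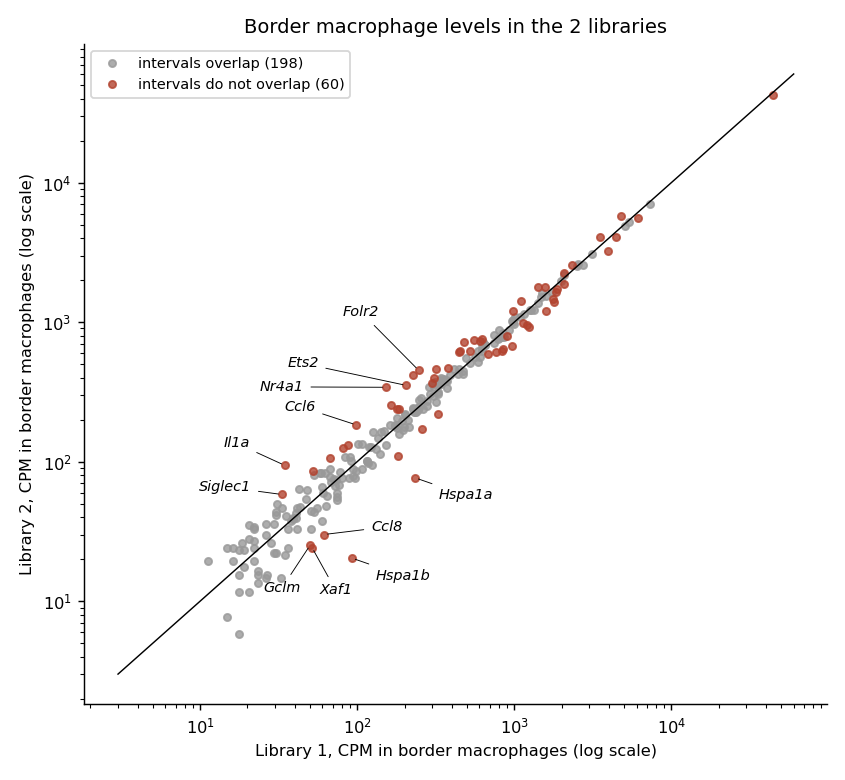
Level of each of 258 pathway genes in border macrophages of library 1 (x axis) and library 2 (y axis) in CPM on log scales; the line marks equal levels, and red points (60) have exact Poisson 95% intervals that do not overlap. Most points lie along the line, with Hspa1a and Hspa1b below it and Nr4a1 and Folr2 above it.

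The libraries also differed in the sex of the mice, as far as transcripts show it. Xist, the RNA of the inactive X chromosome, was found in 78.7% of members of library 1 and 53.6% of library 2, against 98.5% and 56.0% of microglia. Y-linked transcripts were found in 0 of 164 members of library 1, which allows up to 1.83% of cells with such a UMI (3 counts of the total) and sets no limit on cells of male origin, and in 31 of 140 (22.1%) of library 2. Sex, litter, library and genotype cannot be told apart in any difference between the libraries.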

How the data were processed

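Per the submitters' processing notes, the authors used Cell Ranger 4.0.0 and Scanpy 1.7.0 with the mm10 build, and they deposited 1 unfiltered matrix of raw UMI counts (32285 genes, 13589760 barcodes). The suffix of a barcode gave its library. Barcodes were kept from 1000 UMIs and 500 genes with at most 20% mitochondrial UMIs, which left 16636. Summed member counts of 1416605 and 1032190 UMIs set the precision, and intervals (95%, exact Poisson or Clopper-Pearson) cover counting error only. Scrublet in scanpy 1.11.5 (expected doublet rate 0.06) marked 9 and 6 members, which were retained. Free RNA was the sum of barcodes under 100 UMIs. Per-cell shares were also taken with each cell thinned to 1000 UMIs.

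Counts summed per library and class were tested in edgeR 4.0.16 (R 4.3.3, quasi-likelihood, TMM, low-count filter, library as a block, 1 residual degree of freedom), with Benjamini-Hochberg adjustment over all genes. DESeq2 1.42.0 was an alternative. Each library is 1 pool of mice, and genotype and library are held together in these 2 libraries. With 1 residual degree of freedom the spread is taken largely from all genes together. The p-values therefore measure neither a gene's own spread between the libraries nor the spread between animals. For many genes the adjusted p was under the smallest number stored, so few are printed. The block pairs members and microglia by library, and the samples carry no other pairing. Tests were checked on simulated data, with 50 genes changed by each fold. For members against microglia 20% of 1.5-fold, 56% of 2-fold, 82% of 4-fold and 92% of 8-fold changes were called in the right direction. For the MHC class II ranking the shares were 28%, 86%, 100% and 100%. A gene that did not pass can therefore still differ by such amounts. Changed genes had to reach a minimum of UMIs summed over both groups compared. For members against microglia most of those UMIs are microglial, so a changed gene could have few in members. Libraries differed only by a fixed spread. The check does not cover genes under that minimum or other differences between libraries.

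The members and gene lists were chosen with earlier results of these data known. Named were, from each list, up to 6 called genes with the largest difference at 20 CPM or more in the higher class, and outside the lists 12 in each direction at 50 CPM or more. For the MHC class II ranking 10 in each direction and between libraries 12 were eligible by the same measure. Other list genes were named after their values were seen, to describe a family or pathway. Of 437 list genes 435 matched the deposited gene symbols.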

Additional observations from a re-analysis of the deposited data

How the results depend on the processing

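With members set against microglia, DESeq2 called 1425 genes higher and 1098 lower, and thinning each cell to 1000 UMIs gave 913 and 874, with fewer genes tested. Of the 4874 genes called, 2523 were called in the same direction by DESeq2, 1695 after thinning and 3167 in the stricter set, where 8 took the opposite direction. The comparison is paired by library, and without this replicate block the counts were 2282 and 2257. The 106 genes named by rule kept direction and threshold under DESeq2, total-count scaling, no filter, no block, the other limits on cells and in the stricter set, except Cd86 after thinning, where 98 of them could be tested. In either library alone no test was possible, and all 106 had the same direction. The ranking by MHC class II was less stable. From 41 genes higher and 54 lower, the counts were 5 and 0 with DESeq2 (unadjusted 19 and 26), 9 and 4 with total-count scaling, 7 and 3 without the replicate block, 13 and 20 without Scrublet-marked barcodes, 21 and 24 at a mitochondrial limit of 10%, 20 and 7 at 16 or more UMIs of the 5 genes, 0 and 1 after thinning (unadjusted 35 and 53 with edgeR), 9 and 4 with the ranking split at its middle, and 6 and 1 in the stricter set. In that ranking Cd81 had a difference of -0.32 and Lyz2 of 0.016 after thinning. In the stricter set the differences were -0.067 for Ctsd, 0.41 for Hspa1a and -0.45 for Tgfbr1. Leaving out 1 library gave -0.065 (without library 1) to 2.54 (without library 2) for Cd9, -1.22 to 0.26 for Hspa1a and -0.17 to 4.45 for Il1b. The cause of these changes was not tested. The share of members among kept barcodes stayed within 1.82% to 2.08% in library 1 and 1.52% to 1.78% in library 2.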

Other observations

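Tslp, a cytokine of barrier tissues that acts on dendritic cells, mast cells and innate lymphoid cells, was in no list and was singled out after its values were seen. It stood at 106 and 135 CPM in members of library 1 and library 2, and at 0.652 and 0.840 CPM in microglia. The log2 difference was 7.34 (SE 0.23). A Tslp UMI was found in 48.2% and 46.4% of members, against 0.573% and 0.568% of microglia and 1.30% and 2.48% of endothelial cells. At 1000 UMIs per cell the shares of members were 9.15% and 11.4%.

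Ndnf and Reln, genes of Cajal-Retzius neurons, which lie under the meninges at the hippocampal fissure, had a UMI in more members than microglia of library 1: 9.76% against 0.776% for Ndnf and 7.93% against 0.708% for Reln. In library 2 the shares were 2.86% for both genes in members, and 0.811% and 0.608% in microglia. A single member held up to 147 Ndnf UMIs in library 1 and 33 in library 2. Among endothelial cells 27.2% and 42.1% had an Ndnf UMI and 0.973% and 0.647% a Reln UMI, so Ndnf alone does not mark Cajal-Retzius RNA here. What brought this RNA into these barcodes was not tested.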
